A study of Mus musculus with 6 samples.

Results

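The citric acid cycle and the entry of pyruvate into it were followed through 31 named genes, all of which have a row among the 24239 rows of the deposited per-mouse expression table. They comprise 18 genes of cycle enzymes, 4 of the pyruvate dehydrogenase complex, 4 of its inhibitory kinases, 2 of its activating phosphatases, and 3 of pyruvate carriers and pyruvate carboxylase. The members were taken by gene name alone, and all 31 passed the filter on low values, a mean FPKM of at least 1 (FPKM counts fragments per kilobase of transcript, scaled to the depth of the library). The samples were heart ventricles of 6 male C57BL/6 mice aged 8 to 10 weeks, in a sham group of 3 and a pacing group of 3. The paced hearts were driven from the atria by an esophageal bipolar catheter, with a daily session of 45 min at a cycle length of 80 ms framed by 3 min at 120 ms. Sessions ran for 5 days, paused for 2 and ran for 3 more. The sham mice were not paced, and the labels name no transgene or drug in either group. The labels do not state whether a catheter was placed in the sham mice. Messenger RNA was sequenced from stranded libraries, and the question put to these data was how repeated atrial pacing alters the ventricular transcripts of fuel oxidation.

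Glucose and lactate reach mitochondria as pyruvate, which crosses the inner membrane through a carrier built from the MPC1 and MPC2 proteins. The pyruvate dehydrogenase complex then turns it into acetyl-CoA, and this step is switched off by phosphorylation through the PDK kinases and switched on again by the PDP phosphatases. Acetyl-CoA from pyruvate, fatty acids and ketone bodies enters the citric acid cycle, which feeds electrons to the respiratory chain. The heart is among the tissues richest in these enzymes, and in it most acetyl-CoA comes from fatty acids. Pyruvate carboxylase refills the cycle with oxaloacetate, and it is best known from liver, kidney and fat.

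The effective depth ranged from 6276000 to 8908000 fragments per mouse, so that sampling error was small for most members, whose mean levels ran from 3.37 FPKM (Pdk3) to 2001 FPKM (Mdh1). The 8 heart muscle markers (Myh6, Myl2, Myl3, Tnni3, Actc1, Ttn, Ryr2 and Mybpc3) were present in every library, with a summed level of at least 51525 FPKM. Most of them are not confined to the ventricle. Other tissues differed between libraries. The summed FPKM of 8 atrial muscle markers was 12723, 437 and 5325 in sham 1, 2 and 3 and 5771, 14714 and 10537 in pacing 1, 2 and 3. The summed FPKM of 8 lung epithelium markers was at most 4.97 in the sham mice and pacing 1, and 314 and 1724 in pacing 2 and 3. The fat marker Adipoq measured 27.0, 2.14 and 1.94 FPKM in sham mice 1 to 3, against 72.8, 36.2 and 28.6 FPKM in paced mice 1 to 3. Among other cells, 7 of 7 fibroblast markers and 5 of 5 macrophage markers had positive log2 fold changes (medians 0.46 and 0.30), and 5 of 5 endothelial markers had negative ones (median -0.21), 1 of which turned positive after rescaling to the same sum. The part of these cells and tissues in the results was not tested unless a value is given beside the result.

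Across the pathway, transcripts of the cycle and of pyruvate oxidation mostly lay slightly lower in paced ventricles. Pcx, which encodes pyruvate carboxylase, lay higher without passing the adjusted test. Genes were tested singly, and the lean of the set as a whole was not tested. For 27 of the 31 genes the difference, in either direction, was smaller than the range among the sham mice. Of the 31 members, 29 had a negative log2 fold change (pacing minus sham, on log2(FPKM + 1)) and 2 a positive one. The 29 became 23 after the libraries were rescaled to the same sum and 27 after quantile normalization. No member passed a limma adjusted p under 0.05, as 0% of the 11994 tested genes did. The lowest limma adjusted p of a member was 0.399. The median log2 fold change of the members was -0.13, beside -0.01 over all tested genes, of which 51.8% had a negative value. It was -0.05 beside 0.06 over all genes after rescaling to the same sum, and -0.06 beside -0.03 after quantile normalization. Abundant transcripts as a whole leaned the same way: of the 837 tested genes averaging 100 FPKM or more, 72.3% were below 0, with a median of -0.07. All 24 members at that level were below 0, with a median of -0.14.

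Without the adjustment, 5 members passed p under 0.05 as lower (Mpc2, Dlst, Dlat, Pdp2 and Sdhd), where 3.69% of all tested genes did so. Among the 24 members averaging 100 FPKM or more, 4 passed as lower, where 6.33% of tested genes at that level did so. Pcx alone passed as higher, where 5.17% of tested genes did. In either direction 8.85% of tested genes passed. In 5 members every paced value lay below every sham value (Mpc2, Dlst, Dlat, Sdhd and Idh3a), beside 6.97% of all tested genes. All 5 were among the 24 abundant members, beside 11.7% of the abundant tested genes. Pcx alone had every paced value above every sham value, beside 6.24% of tested genes. In 27 of the 31 members the spread among the 3 sham mice was larger than the difference between the group means on the log2 scale, as it was in 85.4% of tested genes. The exceptions were Idh3a, Pdhb, Mpc2 and Pcx.

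**Figure D1:**
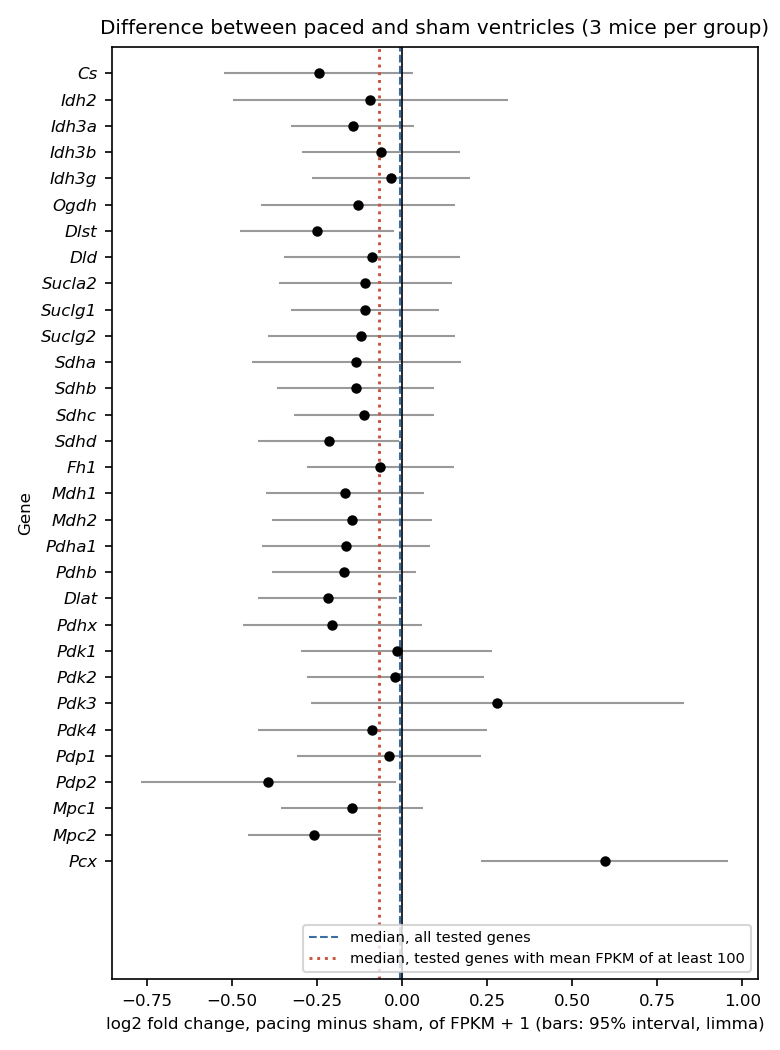
Log2 fold change of each of the 31 genes (horizontal axis, pacing minus sham on log2(FPKM + 1), with the 95% interval from limma) for 3 mice per group; the dashed and dotted lines are the medians of all tested genes (-0.01) and of tested genes averaging 100 FPKM or more (-0.07). Points lie left of 0 for 29 genes, and Pcx at 0.60 lies farthest to the right.

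The mice differed more within the sham group than between the groups. The median deviation of the 31 members from their 6-mouse mean, in log2 units, was -0.09, 0.15 and 0.10 in sham 1, 2 and 3. It was -0.04, -0.04 and -0.12 in pacing 1, 2 and 3. Sham 1 therefore lay among the paced mice, and the group difference rested on sham 2 and sham 3. Sham 2 held the highest value of the 6 mice for 20 members, and pacing 3 held the lowest for 16. Within the sham group, sham 1 was the lowest mouse for 25 members. The order of the sham mice ran opposite to their atrial muscle content, which was highest in sham 1 and lowest in sham 2, while the paced mice did not follow that order. Idh2, the mitochondrial NADP-dependent isocitrate dehydrogenase, showed the widest range of the abundant members, from 1136 FPKM in sham 1 to 1859 in sham 2, a ratio of 1.64. Without sham 1 the median log2 fold change of the members was -0.22, and without sham 2 it was -0.07.

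**Figure D2:**
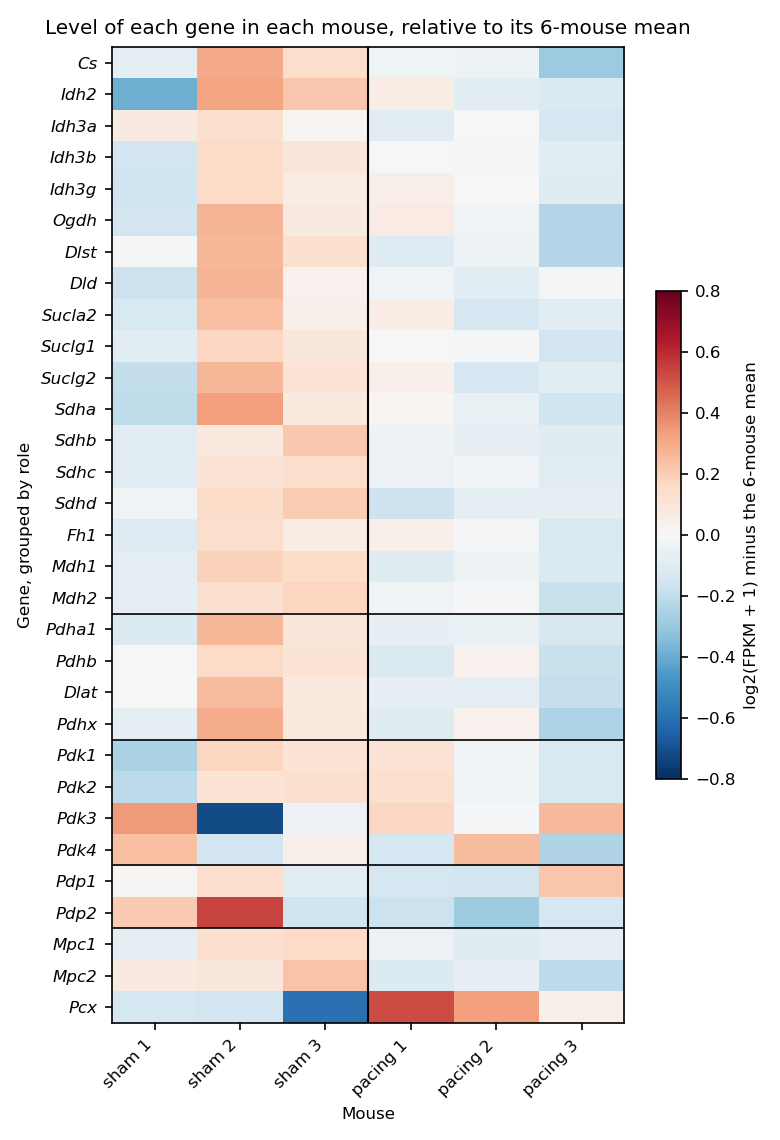
Level of each of the 31 genes (rows, grouped by role) in each of the 6 mice (columns), as log2(FPKM + 1) minus the 6-mouse mean of that gene, red for higher and blue for lower. The column of sham 2 is red for most genes and that of sham 1 is blue for most, while Pcx in the bottom row is red in the 3 paced mice.

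The lower level of the members went along with a lower level of the 8 heart muscle markers, which are not all confined to the ventricle. All 8 had a negative log2 fold change under each scaling tried. Their median was -0.29 on the deposited scale, -0.21 after rescaling to the same sum and -0.12 after quantile normalization. Their summed FPKM was 55351, 69017 and 73399 in sham 1, 2 and 3 and 51525, 53832 and 52700 in pacing 1, 2 and 3. The sums did not overlap between the groups, although sham 1 was close to the paced mice. Myl2 was the largest part of them (26899 FPKM in sham 1). Taken singly, 3 of the 8 markers were lower without overlap between the groups. The same held for 6.97% of all tested genes and 11.7% of those averaging 100 FPKM or more. The median deviation of the 8 from their 6-mouse mean was -0.08 in sham 1, within the paced values of -0.11, -0.04 and -0.21. For the members the summed FPKM was 15241, 18682 and 18049 in the sham mice and 16052, 15942 and 14965 in the paced mice. There too sham 1 lay within the paced range. In bulk tissue, fewer muscle cells and less of a transcript per cell cannot be told apart.

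The genes on which the results turn were also viewed by the sequence in front of their transcription start, since promoters of mitochondrial genes are often rich in GC boxes and CCAAT boxes. RefSeq windows of 300 bases (250 before and 50 after a start, GRCm38.p6, the same coordinates as mm10) were matched by symbol for 28 of the 31 members, 37 windows in all. Below are the 150 bases before the start of the strongest lower genes by fold change at carrier, cycle and phosphatase, and before both starts of Pcx, 5′ to 3′ on the gene's strand, with matches to the motifs named afterwards in capitals. The stretches lie at chr1:165461110-165461259 (Mpc2, plus strand), chr12:85110683-85110832 (Dlst, plus), chr8:104591322-104591471 (Pdp2, plus), chr19:4510322-4510471 (Pcx, first start, plus) and chr19:4594169-4594318 (Pcx, second start, plus).
Mpc2: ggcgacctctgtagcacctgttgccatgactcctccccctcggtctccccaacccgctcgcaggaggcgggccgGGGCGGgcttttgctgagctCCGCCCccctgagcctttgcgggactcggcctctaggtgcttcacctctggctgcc
Dlst: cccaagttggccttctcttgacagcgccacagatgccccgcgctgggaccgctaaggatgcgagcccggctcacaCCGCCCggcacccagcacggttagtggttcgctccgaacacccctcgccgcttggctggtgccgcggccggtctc
Pdp2: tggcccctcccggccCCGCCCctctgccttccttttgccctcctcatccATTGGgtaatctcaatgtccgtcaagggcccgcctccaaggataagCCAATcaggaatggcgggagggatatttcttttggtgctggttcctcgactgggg
Pcx first start: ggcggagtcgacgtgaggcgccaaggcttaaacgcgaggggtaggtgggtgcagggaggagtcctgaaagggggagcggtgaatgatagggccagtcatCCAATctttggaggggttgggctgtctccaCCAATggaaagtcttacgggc
Pcx second start: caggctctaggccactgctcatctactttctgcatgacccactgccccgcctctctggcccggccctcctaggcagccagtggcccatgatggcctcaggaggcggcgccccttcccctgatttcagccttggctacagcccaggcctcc

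Matches were counted on both strands in the full windows. A GC box (GGGCGG) was found in 24 of the 37 member windows (20 of 28 members), and in 35.7% of all 32851 RefSeq windows. A CCAAT box (CCAAT) was found in 25 member windows (19 members), beside 37.4% of all windows. The letters of the ETS and GABP site (CCGGAAG) were found in 6 member windows (Dlst, Idh3b, Idh3g, Mpc1, Sdhb and Sdhd), beside 8.86% of all windows. Those of an NRF1 site were found in 4 (Dld, Sdha, Sdhd and Sucla2), beside 4.60%. The half-site of estrogen-related receptors (AAGGTCA) was found in 2 (Ogdh and Sdhd), beside 4.72%. An E-box (CACGTG) was found in 6 member windows of 4 genes (Ogdh, Pcx, Pdk2 and Pdp2), beside 7.15%, and the TATA box letters (TATAAA) in 0, beside 13.6%. These are matches of letters, and the deposited values are per gene, so that the use of the first and the second Pcx start was not separated.

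Among the carriers, Mpc2, a subunit of the mitochondrial pyruvate carrier, had the lowest limma adjusted p of the lower members. It measured 555, 564 and 619 FPKM in sham mice 1 to 3, against 491, 504 and 456 FPKM in paced mice 1 to 3. The paced values all lay below the sham values, and the means were 579 ± 34.6 and 484 ± 24.8 FPKM (SD, n = 3 each), 16.4% lower with pacing. The log2 fold change was -0.26 (SE 0.09, limma adjusted p = 0.484), and it stayed between -0.29 and -0.21 when any single mouse was left out. Mpc1, the partner subunit and the most abundant gene of this group, measured 694, 800 and 815 FPKM across sham mice, against 706, 682 and 690 FPKM across paced mice. Sham 1 overlapped the paced mice, and the log2 fold change was -0.15 (SE 0.09, limma adjusted p = 0.684). The share of Mpc1 in the summed level of both subunits was 57.0% ± 1.55 in sham and 58.9% ± 1.37 in paced mice (SD, n = 3 each, exact two-sided permutation p = 0.2, adjusted over 4 such shares 0.4). With 3 mice against 3 this test cannot go below 0.1.

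All 4 genes of the pyruvate dehydrogenase complex had a negative log2 fold change, 0 of them passed the limma adjusted test and Dlat alone passed an unadjusted p under 0.05. Dlat, which encodes its acetyltransferase core (E2), measured 113, 135 and 119 FPKM in sham mice 1 to 3, against 108, 107 and 99.2 FPKM in paced mice 1 to 3, with no overlap. Its log2 fold change was -0.22 (SE 0.09, limma adjusted p = 0.551). Pdhb, the beta subunit of the decarboxylase and the most abundant of these genes, measured 666, 742 and 718 FPKM across sham mice, against 614, 685 and 590 FPKM across paced mice. Pacing 2 lay above sham 1, and the log2 fold change was -0.17 (SE 0.09, limma adjusted p = 0.649). The alpha subunit Pdha1 (-0.16) and Pdhx, which tethers the E3 enzyme to the core (-0.21), had log2 fold changes of similar size, and both overlapped between the groups. The level per length of Dlat and Pdhx (means over 6 mice of 113 and 74.4 FPKM) was well under that of Pdha1 and Pdhb (625 and 669 FPKM). Exons of Pdha1 overlap those of Map3k15 on the opposite strand by 603 bases, and without a stated strand setting their fragments cannot be told apart.

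**Figure D3:**
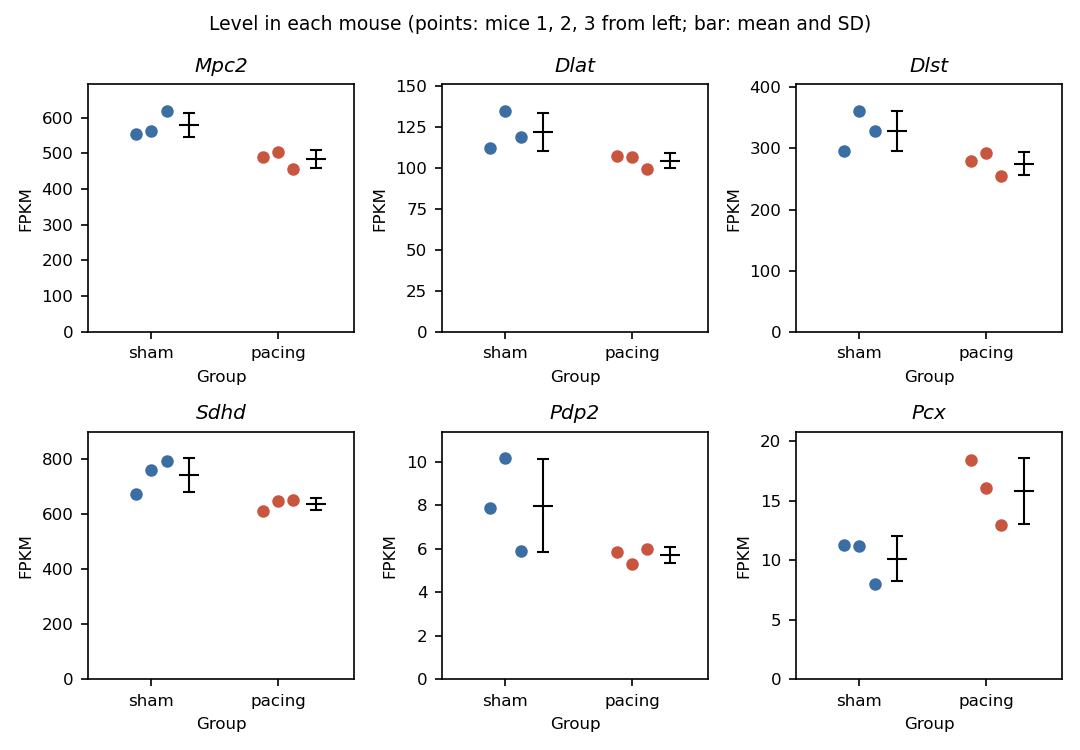
FPKM (vertical axis) of 6 genes in each sham mouse (blue) and paced mouse (red), with the mean and SD of each group as a bar beside the points. The paced points lie below all sham points for Mpc2, Dlat, Dlst and Sdhd and above them for Pcx, and Pdp2 overlaps only through sham 3.

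The kinases that shut off the complex showed no shared direction. Pdk4, the isoform induced by fasting, fatty acids and glucocorticoids, measured 220, 167 and 191 FPKM in sham mice 1 to 3, against 168, 221 and 157 FPKM in paced mice 1 to 3. The groups overlapped fully, since the highest values of each were nearly equal. The log2 fold change was -0.09, with a 95% interval from -0.42 to 0.25 (limma adjusted p = 0.897). Pdk2, the other abundant isoform and the highest of the kinases, measured 173, 217 and 219 FPKM across sham mice, against 219, 196 and 184 FPKM across paced mice, with a log2 fold change of -0.02 and a 95% interval from -0.28 to 0.24. The sign for Pdk2 turned positive after rescaling to the same sum and after quantile normalization. Pdk1, at means of 45.4 ± 7.02 and 44.6 ± 3.74 FPKM, also lay near 0 in log2 fold change (-0.02), and turned positive after rescaling to the same sum. Pdk3 was the least abundant member. It measured 4.40, 1.59 and 3.13 FPKM across sham mice, against 3.78, 3.24 and 4.10 FPKM across paced mice, and its positive log2 fold change of 0.28 (SE 0.24, limma adjusted p = 0.785) became -0.01 without sham 2. At 12.5 fragments per kilobase in sham 2, counting error alone would give a coefficient of variation of 28.2% for a transcript of 1 kilobase. For a longer transcript it would be smaller.

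Within a mouse, the kinase mixture does not depend on library scaling. Pdk4 made up 50.6%, 38.4% and 41.4% of the summed kinase level in sham 1, 2 and 3, and 38.3%, 47.6% and 40.7% in pacing 1, 2 and 3. Sham 1 and pacing 2 were thus the mice with the largest Pdk4 share, one in each group. The group means were 43.4% ± 6.36 and 42.2% ± 4.87 (SD, n = 3 each, exact two-sided permutation p = 0.6, adjusted over the 4 shares 0.7).

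**Figure D4:**
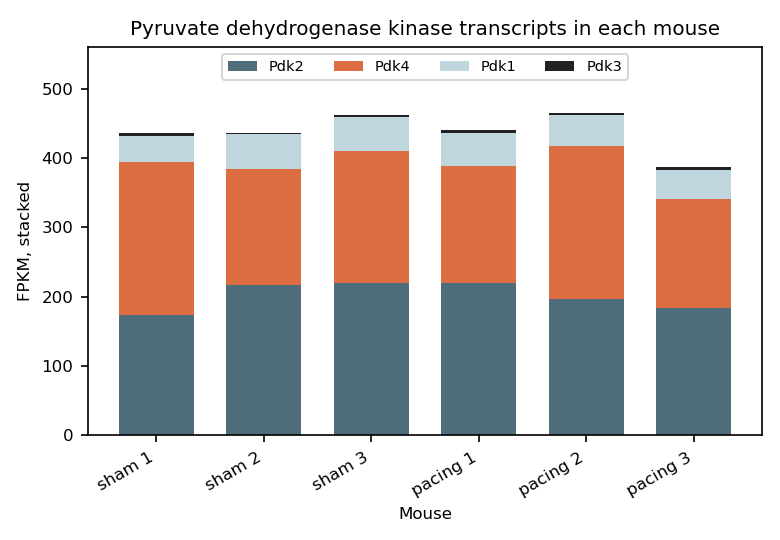
Stacked FPKM (vertical axis) of the 4 pyruvate dehydrogenase kinase genes in each of the 6 mice (horizontal axis). Pdk2 and Pdk4 make up most of every bar, and the Pdk4 part is tallest in sham 1 and pacing 2, at 220 and 221 FPKM.

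Of the phosphatases that reactivate the complex, Pdp2 had the most negative log2 fold change of the 31 genes and Pdp1 one near 0. Pdp2 measured 7.88, 10.2 and 5.89 FPKM in sham mice 1 to 3, against 5.83, 5.30 and 6.00 FPKM in paced mice 1 to 3. Sham 3 lay within the paced values, and the other sham mice lay above them. The log2 fold change was -0.39 (SE 0.16, limma adjusted p = 0.553). It was -0.22 without sham 2. At these levels counting error alone would be up to 16.4% for a transcript of 1 kilobase, and smaller for a longer one. The authors' deposited table called Pdp2 lower, from 7.93 to 5.67 FPKM per group with a q-value of 0.0479. Calls as lower were made there for 0.309% of the genes tested here. Pdp1, the more abundant and calcium-stimulated isoform, measured 19.1, 20.8 and 17.7 FPKM across sham mice, against 17.2, 16.9 and 22.2 FPKM across paced mice, and pacing 3 was the highest of all 6. Its log2 fold change of -0.04 (SE 0.12, limma adjusted p = 0.955) turned positive after rescaling to the same sum. Its share of both phosphatases was 71.0% ± 3.93 in sham and 76.5% ± 2.08 in paced mice (SD, n = 3 each, exact two-sided permutation p = 0.2, adjusted over the 4 shares 0.4).

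All 18 cycle enzyme genes had a negative log2 fold change on the deposited scale, from -0.25 (Dlst) to -0.03 (Idh3g), with a median of -0.12. The median was -0.05 after rescaling to the same sum and -0.06 after quantile normalization. After rescaling to the same sum Idh3b, Idh3g and Fh1 turned positive, as Idh3g did after quantile normalization. Dlst, the succinyltransferase of the oxoglutarate dehydrogenase complex, measured 296, 361 and 328 FPKM in sham mice 1 to 3, against 279, 292 and 255 FPKM in paced mice 1 to 3. No value overlapped, although sham 1 and pacing 2 were close, and the log2 fold change was -0.25 (SE 0.10, limma adjusted p = 0.540). The other subunits of that complex, Ogdh (-0.13) and Dld (-0.09), whose E3 protein also serves pyruvate dehydrogenase, overlapped between the groups. Cs, citrate synthase, which joins acetyl-CoA to oxaloacetate, measured 639, 834 and 744 FPKM across sham mice, against 658, 655 and 550 FPKM across paced mice. Sham 1 lay below 2 of the paced mice, and the log2 fold change was -0.25 (SE 0.12, limma adjusted p = 0.624).

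Among the isocitrate dehydrogenases, Idh3a, the catalytic subunit of the NAD-dependent enzyme, had the least spread among sham mice. It measured 357, 372 and 345 FPKM across sham mice, against 319, 341 and 310 FPKM across paced mice. Its groups did not overlap by a narrow margin between sham 3 and pacing 2, with a log2 fold change of -0.15 (SE 0.08, limma adjusted p = 0.654). The regulatory subunits Idh3b (-0.06) and Idh3g (-0.03) lay closer to 0, and both overlapped. Idh2 had a log2 fold change of -0.09 with a 95% interval from -0.50 to 0.31, wide because of sham 1.

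All 4 subunit genes of succinate dehydrogenase, which is also complex II of the respiratory chain, had a negative log2 fold change. None passed the limma adjusted test, and Sdhd alone passed an unadjusted p under 0.05. Sdhd, a membrane anchor, measured 674, 760 and 791 FPKM in sham mice 1 to 3, against 611, 648 and 650 FPKM in paced mice 1 to 3, without overlap. Its log2 fold change was -0.22 (SE 0.09, limma adjusted p = 0.555). Sdha, the flavoprotein (-0.13), Sdhb, the iron-sulfur subunit (-0.14), and the other anchor Sdhc (-0.11) overlapped between the groups. Succinyl-CoA ligase genes Suclg1 (-0.11), Sucla2 (-0.11) and Suclg2 (-0.12) also overlapped. Sucla2, for the ATP-forming enzyme, exceeded Suclg2, for the GTP-forming one, in every mouse. Suclg2 made up 13.9% ± 0.588 of their sum in sham and 13.8% ± 0.0701 in paced mice (SD, n = 3 each, exact two-sided permutation p = 0.7, adjusted over the 4 shares 0.7). An annotated copy of Suclg2 (Gm15163) matches its transcript at 98.9% over 1302 bases, so that the level of Suclg2 is uncertain.

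Mdh1, the cytosolic malate dehydrogenase of the malate-aspartate shuttle and the most abundant of the 31 genes by mean FPKM, measured 1894, 2263 and 2204 FPKM across sham mice, against 1867, 1936 and 1841 FPKM across paced mice. Sham 1 overlapped with pacing 2, and the log2 fold change was -0.17 (SE 0.10, limma adjusted p = 0.681). The mitochondrial Mdh2 (-0.15) and fumarase, Fh1 (-0.06), overlapped as well. Exons of Mdh1, Mpc1 and Idh3b overlap a gene on the opposite strand by 52, 480 and 5 bases.

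Pcx, the gene of pyruvate carboxylase on chromosome 19 from 4510472 to 4621752 (mm10), was the member that differed most. It measured 11.3, 11.2 and 7.97 FPKM in sham mice 1 to 3, against 18.5, 16.0 and 12.9 FPKM in paced mice 1 to 3. Each paced mouse exceeded each sham mouse, and the means were 10.1 ± 1.88 and 15.8 ± 2.78 FPKM (SD, n = 3 each). The log2 fold change was 0.60 (SE 0.16, limma adjusted p = 0.399). It ranged from 0.45 to 0.72 when any single mouse was left out. The authors' deposited table called Pcx higher, from 10.1 to 15.7 FPKM per group with a q-value of 0.00834, and it made such calls for 2.43% of the genes tested here. Pcx and Pdp2 were the members called in that table, and the lowest q-value of the others was 0.502 there. Lrfn4 is listed with the same interval as Pcx, and no annotated exons of the 2 genes overlap.

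White fat transcripts differed in the direction of Pcx. Of 8 white fat markers 7 were tested and all 7 had a positive log2 fold change, with a median of 2.71 and the smallest, 0.03, in Fabp4. None of the 7 passed the limma adjusted test, and 6 passed an unadjusted p under 0.05. None of the 8 was at the floor of the table in any mouse. The summed FPKM of the 8 ranged from 1594 to 1962 in sham and from 1792 to 2537 in paced mice, mostly Fabp4, which endothelial cells also express. Ucp1, the uncoupling protein of brown fat, measured 21.1, 3.34 and 1.08 FPKM in sham mice 1 to 3, against 48.6, 30.2 and 1.06 FPKM in paced mice 1 to 3. Its log2 fold change was 1.34 (SE 1.21, limma adjusted p = 0.791). Of 8 brown fat markers 4 were tested, with 2 positive (Ucp1 and Cidea) and 2 negative (Cox8b and Cox7a1). Heart muscle also expresses Cox8b and Cox7a1, which averaged 3231 and 4839 FPKM over the 6 mice, beside 17.6 FPKM for Ucp1. Cox7a1 was lower without overlap (log2 fold change -0.28, limma adjusted p = 0.511). Slc25a1, the citrate carrier that exports citrate for lipid synthesis, measured 18.3, 6.29 and 6.43 FPKM in sham mice 1 to 3, against 21.9, 27.4 and 15.2 FPKM in paced mice 1 to 3. Acly, which splits that citrate, measured 16.5, 13.1 and 10.8 FPKM across sham mice, against 16.7, 25.4 and 16.3 FPKM across paced mice. The log2 fold changes were 1.11 (SE 0.37, limma adjusted p = 0.481) and 0.49 (SE 0.19, limma adjusted p = 0.540), and both genes were called higher in the authors' deposited table (q-value 0.00328 each). Sham 1, with an Adipoq level near that of pacing 3 (27.0 and 28.6 FPKM), had the Slc25a1 level of a paced mouse. For Pcx the same 2 mice stood at 11.3 and 12.9 FPKM. All 6 mice fell in the same order for Adipoq and for Pcx, with pacing 1 highest (72.8 and 18.5 FPKM) and sham 3 lowest (1.94 and 7.97 FPKM), while sham 1 and sham 2 were nearly level for Pcx (11.3 and 11.2 FPKM) and apart for Adipoq (27.0 and 2.14 FPKM). Among the other white fat markers, Cidec, Cfd and Car3 gave that same order of mice, while Plin1, Retn, Lep and Fabp4 did not. Plin1 and Retn were higher in sham 1 (7.83 and 7.69 FPKM) than in pacing 3 (6.16 and 7.29 FPKM). In pacing 3 Lep was at its highest and Fabp4 at its lowest. The part of fat tissue in the Pcx difference was not tested beyond these values.

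**Figure D5:**
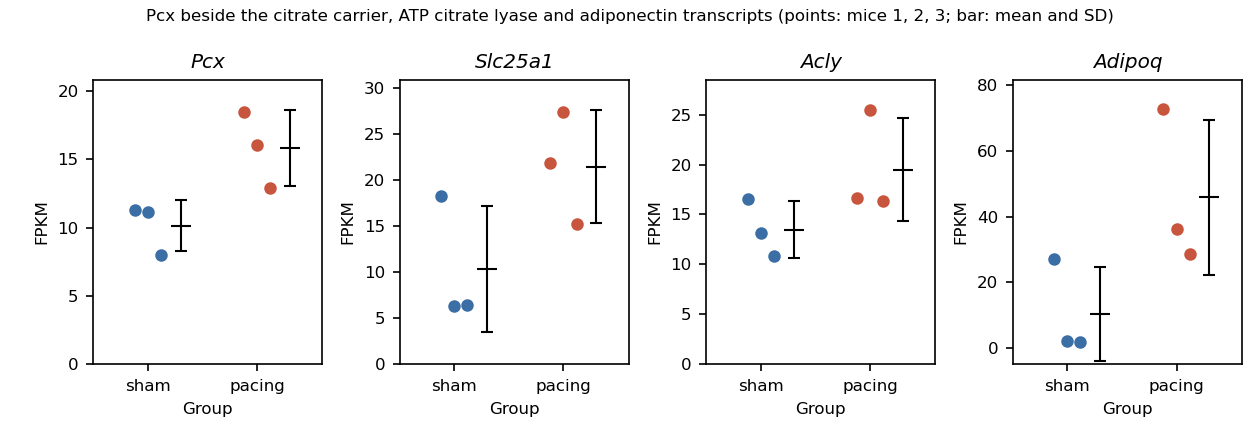
FPKM (vertical axis) of Pcx, Slc25a1, Acly and the fat marker Adipoq in each sham mouse (blue) and paced mouse (red), mice 1, 2 and 3 from left, with the mean and SD of each group. The 6 mice have the same order for Pcx and Adipoq, from pacing 1 (18.5 and 72.8) down to sham 3 (7.97 and 1.94). Sham 1 is nearly level with sham 2 for Pcx but above it for Adipoq and Slc25a1. Other white fat markers, not drawn, did not all follow this order.

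Of the genes around the pathway, in lists drawn up by function, 0 passed a limma adjusted p under 0.05. Of 9 other cycle and assembly genes tested, 8 were below 0 and 1 above, with a median log2 fold change of -0.13 (6 and 3 after rescaling to the same sum), and 1 passed an unadjusted p under 0.05. This was Sdhaf4, an assembly factor of succinate dehydrogenase, which stood at 89.0 ± 2.91 FPKM in sham and 78.4 ± 4.35 FPKM in paced mice (SD, n = 3 each), without overlap. Of 14 other genes of pyruvate use and lipoate synthesis, 12 were below 0 and 2 above, with a median of -0.06. After rescaling to the same sum 5 were below 0 and 9 above. The 1 gene of them with an unadjusted p under 0.05, Lipt2, which starts the attachment of the lipoate cofactor that Dlat and Dlst proteins need, stood at 8.57 ± 0.950 and 6.40 ± 0.638 FPKM, also without overlap (log2 fold change -0.37, SE 0.11, limma adjusted p = 0.447).

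Of 23 genes of anaplerosis, shuttles and carriers, 17 were below 0 and 6 above (14 and 9 after rescaling to the same sum), with a median of -0.09, and 3 passed an unadjusted p under 0.05 as higher and 1 as lower. Beside Slc25a1 and Acly these were Aspa and Oxct1. Oxct1, which activates ketone bodies so that they can enter the cycle as acetyl-CoA, measured 547, 666 and 599 FPKM across sham mice, against 487, 467 and 485 FPKM across paced mice, without overlap (log2 fold change -0.33, SE 0.09, limma adjusted p = 0.428). Aspa, which releases acetate from N-acetylaspartate, measured 3.18, 2.03 and 2.09 FPKM across sham mice, against 4.24, 4.14 and 4.59 FPKM across paced mice (log2 fold change 0.65, SE 0.14, limma adjusted p = 0.347), again without overlap.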

How the data were processed

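Ventricular polyA RNA of 3 sham and 3 paced mice was read as 151-base paired ends from stranded libraries, per the labels' protocols. The authors' deposited table gives FPKM per gene and mouse, and their deposited comparison table gives group FPKM values and q-values, which were used as deposited. The submitters' processing notes name TopHat2 2.1.0 with Bowtie2 2.2.6, the Cufflinks and Cuffdiff programs, FastQC 1.0.0 and the build mm10. For the gene annotation and the strand setting, the sources used here name nothing. Deposited intervals start at base 0 and were written from base 1; all rows carry the same strand, so strand was taken from GENCODE M21 and RefSeq.

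FPKM values entered limma 3.58.1 (eBayes with trend, Benjamini-Hochberg adjustment, under R 4.3.3) as log2(FPKM + 1) for the 11994 genes averaging 1 FPKM or more, and the fold changes understate those of low genes. The fit was tested on simulated data with planted differences larger than that of any member, so the test does not cover differences of the members' size. Within-mouse shares were compared by exact permutation (SciPy 1.17.1). Effective depth was read from the steps between low FPKM values of 227 single-exon genes: 100% of their values under 20 fragments came out whole within 0.05. Near-identical transcripts were sought with BLAST 2.17.0. Each mouse is a separate sample in the labels. The members and gene lists were chosen with earlier results of these data known. Per-mouse values are given for members with an unadjusted p under 0.05, without overlap, called in the authors' table or highest in their role group, and Pdk4, Cs and Pdk3 were added after their values were seen. Genes of other lists are named by an unadjusted p under 0.05 or a call of the authors, at most 4 per list, and some items are not reported here. Other pseudocounts, filters, scalings, eBayes settings, array weights, the replicate number as a block and leaving out mice were tried as alternatives.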

Additional observations from a re-analysis of the deposited data

How the results depend on the processing

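No member passed a limma adjusted p under 0.05 under any alternative tried with limma; the lowest was 0.135, with the replicate number as a block. The count of all genes past the threshold, 0 in the reported fit, was 1 with robust eBayes and 7 with the replicate block. It was 0 to 100 with a mouse left out (100 without sham 1). The authors' deposited table called 336 of its 24341 rows. Among the genes tested here it called 292 as higher and 37 as lower. Same-numbered mice did not deviate together (correlations -0.13, -0.02 and -0.02), so the numbers were not taken as pairs. After rescaling to the same sum the log2 fold change turned positive for Idh3b (0.0155), Idh3g (0.0441), Fh1 (0.0135), Pdk1 (0.0602), Pdk2 (0.0577) and Pdp1 (0.0351). After quantile normalization it did so for Idh3g (0.0198) and Pdk2 (0.0035). Without pacing 2 and pacing 3, the mice with lung transcripts, it did so for Idh2 (0.0103), Idh3g (0.0272), Sucla2 (0.0029), Fh1 (0.0081), Pdk1 (0.11) and Pdk2 (0.12), and 23 members were lower with a median of -0.11. With a mouse left out, ranges that crossed 0 were -0.20 to 0.0237 (Dld), -0.31 to 0.0410 (Idh2), -0.12 to 0.0343 (Idh3g), -0.15 to 0.0652 (Pdk1), -0.13 to 0.0394 (Pdk2), -0.00932 to 0.52 (Pdk3), -0.24 to 0.0120 (Pdk4) and -0.16 to 0.0264 (Pdp1). The difference in the Pdk4 share ran from -3.97 to 2.33 percentage points and in the Suclg2 share from -0.43 to 0.15. The members' median, -0.13 in the reported fit, was -0.05 after rescaling to the same sum and -0.06 after quantile normalization, and with a mouse left out it ran from -0.22 to -0.07, and 24 to 28 members were lower. Depth limits Pdk3, Pdp2 and Pcx most, at 12.5 to 149 fragments per kilobase per mouse, to an extent that depends on transcript length.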

Other observations

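Among 23 genes that respond, like Pdk4, to PPAR, glucocorticoid or FOXO signals, 12 had a positive and 11 a negative log2 fold change, with a median of 0.02, and 15 were positive after rescaling to the same sum. None passed a limma adjusted p under 0.05, and 3 passed an unadjusted p under 0.05 as higher and 2 as lower. Pdk4 itself overlapped between the groups. Tsc22d3, a glucocorticoid-induced leucine zipper protein, measured 47.5, 64.1 and 56.5 FPKM across sham mice, against 70.2, 85.9 and 71.5 FPKM across paced mice, a log2 fold change of 0.43 (SE 0.13, limma adjusted p = 0.428). The groups did not overlap, and the gene was called higher in the authors' deposited table with a q-value of 0.0252. In the other direction, Acot2, a mitochondrial acyl-CoA thioesterase, stood at 25.0 ± 0.764 and 20.4 ± 0.433 FPKM (SD, n = 3 each), and the spread within each group was small beside the difference. Ucp3, a mitochondrial carrier of muscle, measured 92.9, 62.9 and 74.3 FPKM across sham mice, against 53.1, 60.8 and 56.1 FPKM across paced mice, and was called lower in the authors' deposited table with a q-value of 0.0149. The paced values of Ucp3 were close to each other, and sham 2 lay just above them.

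Of 14 regulators of mitochondrial genes and deacylases, 10 had a negative and 4 a positive log2 fold change, with a median of -0.10 (-0.03 after rescaling to the same sum). None passed a limma adjusted p or an unadjusted p under 0.05, and the lowest q-value among them in the authors' deposited table was 0.652.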
